A study of Mus musculus with 18 samples.

Results

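The genes described here are targets and feedback components of the WNT/beta-catenin pathway, measured in mouse intestinal tumours and intestinal epithelial cells with and without Stat3. They are a named list of 34 genes, taken by their platform symbol, and a gene with several probe sets was read from the one with the highest average over all 18 arrays. Of the 34 genes, 32 were measured among 19938 genes with a probe set of 1 symbol, and all 32 passed the filter on low values that left 17316 genes for testing. Ephb2 and Tcf7 matched no such probe set and were not analysed here. The list holds known pathway genes and was not chosen by a threshold on these arrays. It was chosen with earlier results of these data known, so its counts are not independent of them.

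WNT proteins bind Frizzled and LRP receptors and stop a cytoplasmic complex of APC, AXIN and the kinases CK1 and GSK3 from marking beta-catenin for degradation. Stabilised beta-catenin joins TCF/LEF factors on DNA and turns on genes that include growth regulators and many inhibitors of the pathway itself, which form negative feedback loops. In the intestine this pathway maintains the crypt stem cells, and loss of APC, which the APCmin allele starts, activates it in adenomas.

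The study asked whether Stat3, a transcription factor activated by cytokines, is needed for tumour growth in the APCmin model. Total RNA was hybridised to 18 Affymetrix whole-transcript arrays, in 6 groups of 3 arrays. Stat3-deleted (Stat3-/-) male tumours were replicates 10 to 12, against control (Stat3fl/fl) male tumours, replicates 7 to 9. Stat3-deleted female tumours were replicates 16 to 18, against control female tumours, replicates 13 to 15. Stat3-deleted intestinal epithelial cells were replicates 4 to 6, against control epithelial cells, replicates 1 to 3. According to the series design, the deleted animals carried a Cre recombinase under the Villin promoter, which is active in intestinal epithelium, with floxed Stat3, and tumour animals of both genotypes carried APCmin. Cells other than epithelium in a tumour therefore keep Stat3. The controls also carried the floxed alleles. The sample descriptions of all 18 arrays, the epithelial ones included, name a colorectal tumour of the azoxymethane/dextransulfate model in APCmin mice. The tissue labels read intestinal tumour or intestinal epithelial cell, and the series design places APCmin tumours mainly in the small intestine, so the sources differ on the site and the inducing agent. The Apc genotype of the epithelial animals rests on the same description and is doubtful. The sources used here give no ages, no batches and no sex of the epithelial animals, and nothing states that arrays came from separate animals. The p-values then measure the spread between these arrays, which may be technical.

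Values are log2 expression after RMA, a method that corrects, normalises and summarises probe intensities, and a difference of 1 is a 2-fold change. Array medians lay between 5.88 and 6.07. Stat3 itself was 7.73 to 8.46 in the 9 Stat3-deleted arrays and 9.74 to 10.35 in the 9 controls, without overlap. Whether its probes lie in the deleted exons was not determined. In all epithelial arrays Xist, which is transcribed from the inactive X chromosome of females, was 3.92 to 4.46, against 9.77 to 10.45 in female and 3.81 to 4.20 in male tumours. Tumours of both sexes were compared with these low-Xist epithelial arrays, so sex and tissue cannot be fully told apart there. A fit with male tumours alone was an alternative. Among the genes studied here, Nkd2 was above its array's median in 0 arrays and Fgf20 in 1, so their values lie near the dim end of the scale. Levels of different probe sets are not compared with each other.

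Most of the targets and inhibitors were higher in tumours than in epithelial cells, in both genotypes. In Stat3-deleted tumours against Stat3-deleted epithelial cells, 23 of the 32 genes were higher and 3 lower at an adjusted p under 0.05, with limma and Benjamini-Hochberg adjustment over 17316 genes. Over all genes tested, 30.3% were higher and 36.2% lower in this comparison. In control tumours against control epithelial cells, 22 of 32 were higher and 3 lower, against 30.4% and 35.3% of all genes. The median log2 difference of the 32 genes was 1.97 in the Stat3-deleted comparison and 2.04 in the control comparison, against -0.07 and -0.08 over all genes. In every array, Stat3-deleted tumours lay above the Stat3-deleted epithelial cells for 22 members and below them for 3, against 27.1% and 28.8% of all genes. The control arrays were separated in the same way for 23 members above and 3 below, against 24.8% and 26.3% of all genes.

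**Figure D1:**
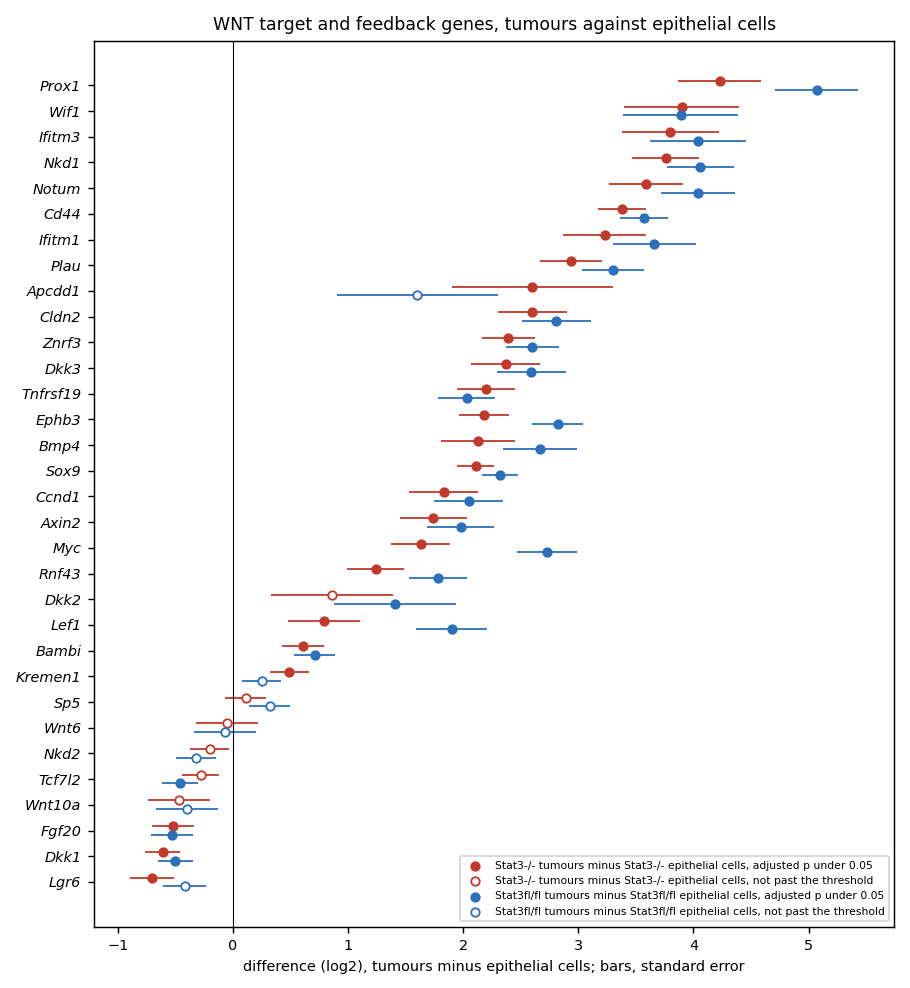
Differences between tumours and epithelial cells for the 32 genes, as log2 difference on the horizontal axis, for Stat3-deleted arrays (red) and control arrays (blue). Points are limma estimates with standard errors, and filled points passed an adjusted p of 0.05. Prox1 is at the top with 4.23 and 5.07, and Apcdd1 is filled in the Stat3-deleted arrays and open in the controls.

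Cells other than epithelium differed between these tissues as well, and their marker levels were as follows. All 11 fibroblast markers were higher in tumours of both genotypes, with an array mean of 9.33 to 10.93 in tumours against 6.32 to 6.84 in epithelial cells. The 7 smooth muscle markers were all higher in both genotypes, at 7.77 to 9.51 in tumours against 5.68 to 6.20 in epithelial cells. The 7 endothelial markers were also all higher, at 7.09 to 7.76 in tumours against 5.07 to 5.41 in epithelial cells. Macrophage markers averaged 7.12 to 9.0 in tumours against 5.76 to 6.27 in epithelial cells, and 8 of 9 were higher in Stat3-deleted tumours and 9 of 9 in control tumours. Markers of T and NK cells ran the other way, at 5.63 to 6.71 in tumours against 6.79 to 9.06 in epithelial cells, the highest being Stat3-deleted replicate 4. General epithelial markers averaged 11.20 to 11.88 in tumours against 11.42 to 11.65 in epithelial cells, and single markers moved in both directions. Of 9 such markers, 3 were higher and 2 lower in Stat3-deleted tumours (30.3% and 36.2% of all genes). In control tumours 3 were higher and 3 lower (30.4% and 35.3% of all genes). Enterocyte markers, genes of the mature absorptive cell, separated the tissues in every array, at 8.42 to 11.86 in tumours against 12.36 to 12.81 in epithelial cells. Of these 9 markers 2 were lower in Stat3-deleted tumours (median difference -1.39) and 9 in control tumours (median -2.39), and in the test of the difference between the genotypes 0 of 9 passed. All 9 proliferation markers measured were higher in tumours of both genotypes, with means of 7.86 to 9.30 in tumours against 6.85 to 7.94 in epithelial cells. The part of these cell types in the differences below was not tested, and in bulk samples fewer cells of a type and less RNA per cell cannot be told apart.

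Axin2, a scaffold of the beta-catenin destruction complex and a standard readout of the pathway, was raised in every tumour. In Stat3-deleted tumours Axin2 was 8.24, 8.87 and 9.41 (lowest, median and highest of 6), against 7.09, 7.13 and 7.12 in Stat3-deleted epithelial cells. The matching values in controls were 8.64, 9.11 and 10 in tumours and 7.18, 7.20 and 7.41 in epithelial cells. No tumour overlapped an epithelial array. This is a difference of 1.74 ± 0.29 (SE; 3.35-fold higher; adjusted p = 0.000141) for Stat3-deleted arrays and 1.98 ± 0.29 (3.94-fold higher; adjusted p = 3.87e-05) for controls.

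The ubiquitin ligases Rnf43 and Znrf3, which remove Frizzled receptors from the cell surface, were both higher. Stat3-deleted tumours had Rnf43 values of 9.06, 9.43 and 10.09 as the lowest, median and highest of 6, and Stat3-deleted epithelial cells had 7.85, 8.41 and 8.42. Among controls they were 9.33, 9.63 and 10.36 in the 6 tumours and 8.0, 8.03 and 7.98 in the 3 epithelial arrays. Every tumour lay above every epithelial array for this gene. Means differed by 1.24 ± 0.25 (SE; 2.36-fold higher; adjusted p = 0.000633) with Stat3 deleted and by 1.78 ± 0.25 (3.43-fold higher; adjusted p = 3.13e-05) in controls. Znrf3 differed more. The log2 values of Znrf3 were 7.80, 8.27 and 8.83 in Stat3-deleted tumours (lowest, median and highest of 6) and 6.10, 5.81 and 5.67 in Stat3-deleted epithelial cells. The 6 control tumours gave 8.25, 8.41 and 8.81, and the 3 control epithelial arrays 5.75, 6.43 and 5.47. Its tumours and epithelial arrays were separated by more than 1 log2 unit. Stat3-deleted tumours differed by 2.39 ± 0.23 (SE; 5.23-fold higher; adjusted p = 1.42e-06) and control tumours by 2.60 ± 0.23 (6.06-fold higher; adjusted p = 4.09e-07).

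The Naked proteins, which bind Dishevelled inside the cell and dampen the signal, split into a member that rose and a member that did not pass. For Nkd1 the 6 Stat3-deleted tumours gave 9.84, 10.45 and 11.18 as lowest, median and highest, and the 3 Stat3-deleted epithelial arrays 6.79, 6.73 and 6.69. Control tumours had 10.10, 10.24 and 11.01, against 6.13, 6.50 and 6.53 in control epithelial cells. The lowest of the 12 tumours was 9.84 and the highest epithelial array 6.79. The difference of means was 3.76 ± 0.29 (SE; 13.5-fold higher; adjusted p = 1.62e-07) in Stat3-deleted arrays and 4.06 ± 0.29 (16.7-fold higher; adjusted p = 4.74e-08) in controls. Nkd2, the dim paralog, differed by -0.20 (adjusted p = 0.308) in Stat3-deleted arrays and -0.32 (adjusted p = 0.101) in control arrays. The control difference passed without replicate 8, at -0.39 (adjusted p = 0.0453), and with only the compared groups fitted (0.046), and with array weights it passed in both genotypes (0.0252 with Stat3 deleted and 0.0214 in controls).

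Of 7 secreted and membrane feedback genes, 5 were higher and 1 lower in Stat3-deleted tumours (30.3% and 36.2% of all genes). In control tumours 4 of these 7 were higher and 1 lower (30.4% and 35.3% of all genes). Notum, an enzyme that inactivates WNT proteins by removing their lipid, was among the largest. Notum had a lowest, median and highest log2 value of 8.70, 9.87 and 10.68 in the 6 Stat3-deleted tumours, against 5.92, 6.62 and 6.06 in the 3 Stat3-deleted epithelial arrays. The matching values in controls were 9.74, 10.03 and 10.40 in tumours and 5.72, 6.21 and 6.15 in epithelial cells. The lowest tumour, Stat3-deleted female replicate 17, was still far above the highest epithelial array. This is a difference of 3.59 ± 0.32 (SE; 12-fold higher; adjusted p = 8.31e-07) for Stat3-deleted arrays and 4.04 ± 0.32 (16.4-fold higher; adjusted p = 1.51e-07) for controls. Wif1, which binds WNT proteins outside the cell, rose as far but spread more widely between tumours. In Stat3-deleted tumours Wif1 was 9.18, 10 and 11.50 (lowest, median and highest of 6), against 6.46, 6.28 and 6.36 in Stat3-deleted epithelial cells. Among controls they were 9.52, 9.86 and 11.31 in the 6 tumours and 6.40, 6.25 and 6.43 in the 3 epithelial arrays. Its 4 highest tumours were 11.50 in replicate 18 and 11.36 in replicate 11, both Stat3-deleted, and 11.31 in replicate 15 and 11.29 in replicate 9, both controls. Means differed by 3.90 ± 0.50 (SE; 14.9-fold higher; adjusted p = 2e-05) with Stat3 deleted and by 3.89 ± 0.50 (14.8-fold higher; adjusted p = 1.24e-05) in controls.

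The Dickkopf genes went in different directions. Dkk3, a divergent member of the family, was higher in tumours by 2.37 ± 0.30 (SE) in Stat3-deleted arrays and by 2.59 ± 0.30 in controls. Dkk1, which blocks the LRP co-receptors, was lower by both comparisons. Stat3-deleted tumours had Dkk1 values of 5.25, 5.75 and 6.02 as the lowest, median and highest of 6, and Stat3-deleted epithelial cells had 6.60, 6.24 and 6.15. The 6 control tumours gave 5.40, 5.86 and 6.11, and the 3 control epithelial arrays 6.14, 6.40 and 6.39. The tumour and epithelial ranges were close to each other. Dkk1 was dim, near the array medians of 5.88 to 6.07, and above its array's median in 10 of 18 arrays. Over all genes, 36.2% were lower in the Stat3-deleted comparison and 35.3% in controls. Stat3-deleted tumours differed by -0.61 ± 0.15 (SE; 1.53-fold lower; adjusted p = 0.00238) and control tumours by -0.50 ± 0.15 (1.41-fold lower; adjusted p = 0.00944). With male tumours alone, the comparison in which Xist was low in all arrays, the control difference was -0.36 and did not pass (adjusted p = 0.0931). Dkk2, a related LRP ligand, passed in the controls, with a difference of 1.41 (adjusted p = 0.0276), and did not in Stat3-deleted arrays, where it was 0.86 (adjusted p = 0.159). The control call of Dkk2 was lost when replicate 1, 2, 3 or 9 was left out, with adjusted p between 0.0541 and 0.0739, and with only the compared groups fitted (0.0832). The Stat3-deleted difference of Dkk2 passed when the fit held no replicates 9 and 15 (adjusted p = 0.00169), with only the compared groups fitted (0.00709) and with array weights (0.00256). Kremen1, a receptor for Dickkopf proteins, passed in Stat3-deleted arrays at 0.49 (adjusted p = 0.018) and not in controls at 0.25 (adjusted p = 0.193). Without Stat3-deleted epithelial replicate 4 or 5 its adjusted p was 0.11 or 0.0531, and it did not pass with quantile normalisation (0.334), array weights (0.0586) or male tumours alone (0.104). The difference between the genotypes, as the deletion effect in tumours minus that in epithelial cells, was -0.55 for Dkk2 (adjusted p = 0.798) and 0.23 for Kremen1 (adjusted p = 0.73).

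The TCF/LEF factors diverged. Lef1, which is low in normal epithelium and is itself a target, was higher in tumours of both genotypes. The log2 values of Lef1 were 6.65, 7.34 and 7.86 in Stat3-deleted tumours (lowest, median and highest of 6) and 6.32, 6.54 and 6.68 in Stat3-deleted epithelial cells. Control tumours had 7.39, 7.66 and 8.88, against 5.58, 6.20 and 6.26 in control epithelial cells. Control epithelial replicate 1 was the lowest array and control tumour replicate 9 the highest. The difference of means was 0.79 ± 0.31 (SE; 1.72-fold higher; adjusted p = 0.0344) in Stat3-deleted arrays and 1.90 ± 0.31 (3.74-fold higher; adjusted p = 0.000101) in controls. The Stat3-deleted call was lost without replicate 4, 5, 6, 11, 16 or 18, with adjusted p between 0.0525 and 0.122, with quantile normalisation (0.121) and with male tumours alone (0.0786). Tcf7l2, the main TCF factor of normal intestinal epithelium, was lower in control tumours, with a difference of -0.46 (adjusted p = 0.0166), and its difference in Stat3-deleted arrays was -0.28 (adjusted p = 0.115). The control call was lost without replicate 1 or 3, with adjusted p of 0.0593 and 0.0746, and with quantile normalisation the Stat3-deleted difference passed at -0.53 (0.00365).

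**Figure D2:**
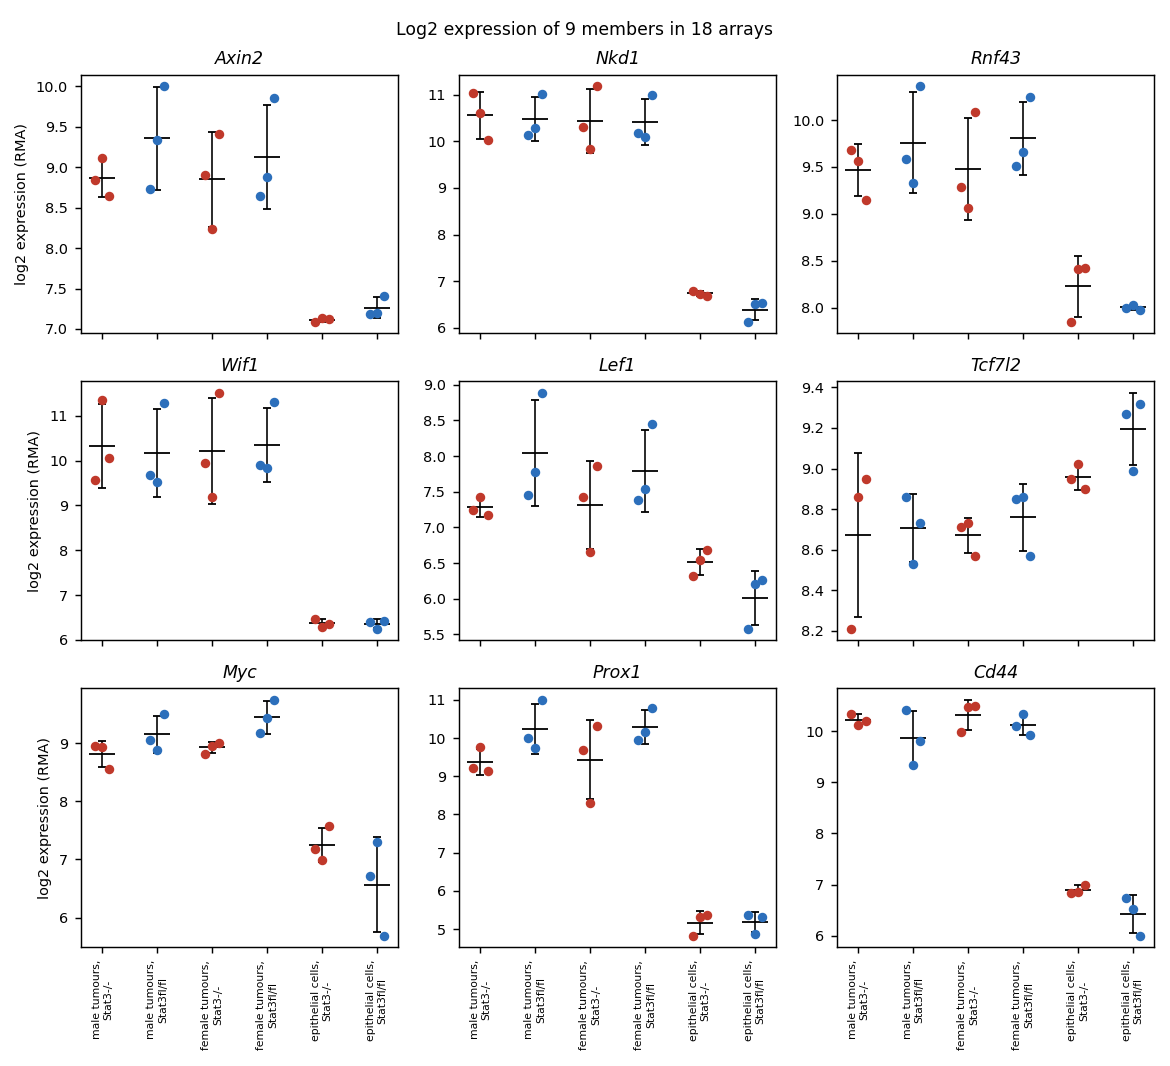
Log2 expression of 9 genes in each of the 18 arrays, with the groups on the horizontal axis, Stat3-deleted in red and control in blue; lines are the mean and bars the SD of 3 arrays. Nkd1, Wif1, Prox1 and Cd44 show tumours well above epithelial cells, Tcf7l2 has the epithelial cells on top, and Lef1 shows control tumour replicate 9 at 8.88.

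Transcription factor targets held the largest difference of the list. Prox1, a homeobox factor induced in intestinal adenomas and also made by lymphatic endothelium, was below every array's median in epithelial cells. For Prox1 the 6 Stat3-deleted tumours gave 8.29, 9.45 and 10.31 as lowest, median and highest, and the 3 Stat3-deleted epithelial arrays 4.83, 5.31 and 5.38. The matching values in controls were 9.73, 10.07 and 10.99 in tumours and 5.37, 4.88 and 5.31 in epithelial cells. The lowest tumour, replicate 17, exceeded the highest epithelial array by more than 2 log2 units. This is a difference of 4.23 ± 0.36 (SE; 18.8-fold higher; adjusted p = 4.39e-07) for Stat3-deleted arrays and 5.07 ± 0.36 (33.7-fold higher; adjusted p = 4.66e-08) for controls. Sox9, a factor of crypt progenitors and Paneth cells, was higher by 2.11 ± 0.16 (SE) in Stat3-deleted arrays and 2.32 ± 0.16 in controls.

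Myc, a driver of growth and ribosome production, was higher in tumours of both genotypes, and its epithelial values were uneven. Myc had a lowest, median and highest log2 value of 8.55, 8.94 and 9.01 in the 6 Stat3-deleted tumours, against 7.18, 6.99 and 7.57 in the 3 Stat3-deleted epithelial arrays. Among controls they were 8.89, 9.30 and 9.74 in the 6 tumours and 6.71, 7.30 and 5.69 in the 3 epithelial arrays. Among the epithelial arrays, control replicate 3 was lowest. Means differed by 1.63 ± 0.26 (SE; 3.08-fold higher; adjusted p = 0.000119) with Stat3 deleted and by 2.73 ± 0.26 (6.65-fold higher; adjusted p = 9.07e-07) in controls. Ccnd1, the cyclin of early cell cycle entry, was higher by 1.83 and 2.05 in Stat3-deleted and control arrays, both past the threshold.

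Sp5, a zinc finger factor often used as a direct target, did not pass in either genotype. In Stat3-deleted tumours Sp5 was 6.70, 7.13 and 7.53 (lowest, median and highest of 6), against 7.11, 6.84 and 7.07 in Stat3-deleted epithelial cells. The 6 control tumours gave 6.87, 6.98 and 7.74, and the 3 control epithelial arrays 6.64, 6.89 and 6.91. The tumour and epithelial ranges overlapped. The difference was 0.11 (95% interval -0.28 to 0.51, adjusted p = 0.593) in Stat3-deleted arrays and 0.32 (-0.07 to 0.71, adjusted p = 0.136) in controls.

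The sequences before the gene starts were searched for the TCF/LEF core letters CTTTGAT and CTTTGTT on both strands, as a description of the genes. The windows run from 250 bases before to 50 after an annotated start, from RefSeq on GRCm38.p6. Of the 32 genes 20 had a window, and 4 of these (20.0%) held a match, against 10.6% of 27025 genes. The 4 printed windows are those of Sp5, which held the most matches and did not pass, of Tnfrsf19, which held a match and was higher in tumours, of Dkk1, which held a match and was lower, and of Axin2, which held none and was higher. Capitals mark the matches, and no match overlapped another.
Sp5: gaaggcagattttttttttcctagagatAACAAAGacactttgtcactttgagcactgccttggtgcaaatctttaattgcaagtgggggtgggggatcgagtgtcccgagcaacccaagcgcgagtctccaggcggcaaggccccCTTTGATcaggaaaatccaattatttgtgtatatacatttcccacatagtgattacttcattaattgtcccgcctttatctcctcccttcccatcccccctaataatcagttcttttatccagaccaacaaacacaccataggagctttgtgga
Tnfrsf19: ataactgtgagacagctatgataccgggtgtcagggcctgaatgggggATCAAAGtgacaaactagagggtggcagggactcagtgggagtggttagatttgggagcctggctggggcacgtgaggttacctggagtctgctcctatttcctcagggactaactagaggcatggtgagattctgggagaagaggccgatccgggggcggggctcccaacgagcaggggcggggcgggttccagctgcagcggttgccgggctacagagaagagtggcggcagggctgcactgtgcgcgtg
Dkk1: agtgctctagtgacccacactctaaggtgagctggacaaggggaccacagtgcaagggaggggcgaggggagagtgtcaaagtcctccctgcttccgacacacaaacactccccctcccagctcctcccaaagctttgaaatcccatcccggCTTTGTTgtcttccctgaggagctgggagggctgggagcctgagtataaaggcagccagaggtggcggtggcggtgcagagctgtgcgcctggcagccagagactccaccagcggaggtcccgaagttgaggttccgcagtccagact
Axin2: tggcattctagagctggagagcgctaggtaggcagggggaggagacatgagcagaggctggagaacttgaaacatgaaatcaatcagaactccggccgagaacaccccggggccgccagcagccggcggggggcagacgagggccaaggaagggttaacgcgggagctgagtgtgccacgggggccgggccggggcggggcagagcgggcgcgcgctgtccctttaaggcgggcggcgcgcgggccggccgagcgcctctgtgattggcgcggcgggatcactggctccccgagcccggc
The Sp5 window is chr2:70474673-70474972, plus strand, and holds AACAAAG, the reverse complement of CTTTGTT, beginning 222 bases before the start and CTTTGAT beginning 104 bases before it. At least 2 matches in a window were found in 0.662% of genes. The Tnfrsf19 window is chr14:61037938-61038237, minus strand, with ATCAAAG, the reverse complement of CTTTGAT, 202 bases before the start. The Dkk1 window is chr19:30549447-30549746, minus strand, with CTTTGTT 98 bases before the start. The Axin2 window is chr11:108920099-108920398, plus strand. Tcf7l2 held CTTTGTT 14 bases before a start, in chr19:55895071-55895370 on the plus strand. A match is a string of letters and not a shown binding site.

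Of 8 targets at the cell surface and in the matrix, 7 were higher in each genotype. Over all genes, 30.3% were higher in Stat3-deleted arrays and 30.4% in controls. Cd44, an adhesion receptor for hyaluronan and a marker of crypt progenitors, was higher in every tumour. Stat3-deleted tumours had Cd44 values of 9.98, 10.28 and 10.50 as the lowest, median and highest of 6, and Stat3-deleted epithelial cells had 6.83, 6.85 and 7.0. Control tumours had 9.35, 10.01 and 10.42, against 6.73, 6.53 and 6.0 in control epithelial cells. The gap between tumours and epithelial arrays was over 2 log2 units. Stat3-deleted tumours differed by 3.38 ± 0.21 (SE; 10.4-fold higher; adjusted p = 1.45e-08) and control tumours by 3.57 ± 0.21 (11.9-fold higher; adjusted p = 5.88e-09). Tnfrsf19, the receptor TROY of crypt stem cells whose window is printed above, was higher by 2.20 ± 0.25 (SE) in Stat3-deleted arrays and 2.03 ± 0.25 in controls. Ephb3, a receptor that positions cells along the crypt, was higher by 2.18 ± 0.22 and 2.82 ± 0.22 in the same order.

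Ifitm1 and Ifitm3, small membrane proteins also induced by interferon, were 9.35-fold and 13.9-fold higher in Stat3-deleted tumours, and 12.7-fold and 16.5-fold higher in control tumours, than in epithelial cells of the same genotype. Ifitm1 was the only gene of the list with a second probe set, and it moved the same way, at 8.70 to 11.03 in tumours against 5.29 to 5.73 in epithelial cells. Cldn2, a pore-forming claudin of crypt tight junctions, was 6.07-fold and 7.01-fold higher in Stat3-deleted and control tumours. Plau, the protease urokinase, was 7.69-fold and 9.84-fold higher in these comparisons. The exception was Lgr6, an R-spondin receptor. The log2 values of Lgr6 were 5.78, 6.03 and 6.35 in Stat3-deleted tumours (lowest, median and highest of 6) and 6.85, 6.54 and 6.83 in Stat3-deleted epithelial cells. The matching values in controls were 5.92, 6.05 and 6.77 in tumours and 6.41, 6.79 and 6.71 in epithelial cells. Control tumour replicates 9 and 15 lay among the epithelial arrays. The difference of means was -0.70 ± 0.19 (SE; 1.63-fold lower; adjusted p = 0.00412) in Stat3-deleted arrays and -0.42 ± 0.19 (1.34-fold lower; adjusted p = 0.0589) in controls. Without replicate 1, 9 or 15 the control difference passed, with adjusted p of 0.0446, 0.00879 and 0.0247, and it also passed with quantile normalisation (0.00321) and array weights (0.01).

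Of the growth factor genes, Bmp4, a differentiation signal made mostly by stroma in normal intestine, was higher by 2.13 ± 0.32 (SE) in Stat3-deleted arrays and 2.67 ± 0.32 in controls. Bambi, a decoy receptor of the TGF-beta family, rose less, by 0.61 and 0.71. Fgf20, a dim fibroblast growth factor, was lower, with differences of -0.52 (adjusted p = 0.0174) in Stat3-deleted arrays and -0.53 (adjusted p = 0.0163) in controls. The Fgf20 calls were lost without Stat3-deleted replicate 4 or 6 (adjusted p of 0.0904 and 0.0505), with male Stat3-deleted tumours alone (0.0614) and without control replicate 2 (0.0655). The ligands Wnt6 and Wnt10a did not pass in either genotype. Wnt6 differed by -0.05 (95% interval -0.61 to 0.51) and -0.07 (-0.63 to 0.49), and Wnt10a by -0.47 (-1.03 to 0.09) and -0.40 (-0.96 to 0.16), in Stat3-deleted and control arrays. The Wnt10a result depended on the setting. It passed as lower in both genotypes with quantile normalisation (adjusted p = 0.0136 with Stat3 deleted and 0.025 in controls) and with array weights (0.0456 and 0.0206). It also passed in Stat3-deleted tumours with only the compared groups fitted (0.0319), and in control tumours without replicates 9 and 15, at -0.70 (0.0149).

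Lists of other pathway genes were counted in the same way, and the shares over all genes were 30.3% higher and 36.2% lower in Stat3-deleted arrays and 30.4% and 35.3% in controls. Of 17 further WNT ligands, 1 was higher and 15 lower in Stat3-deleted arrays, and 1 was higher and 12 lower in controls, the medians being -0.68 and -0.50. The ligand that rose was Wnt5a, which acts mostly without beta-catenin, at 2.92 and 2.86. Of 16 receptors and co-receptors, 7 were higher and 3 lower in Stat3-deleted arrays, and 8 were higher and 1 lower in controls, among them Fzd6 at 2.12 and 1.89. Wls, which carries WNT proteins out of the cell, was higher by 2.32 and 2.80. Among the R-spondins and their receptors, 2 of 6 were higher and 2 lower in each genotype, and Lgr5, the stem cell receptor, had differences of 3.49 and 3.66. Of 10 other secreted inhibitors, 2 were higher and 4 lower in each genotype, with Sfrp1, a decoy for WNT proteins, at 3.05 and 2.74. The destruction complex list of 14 genes had 6 higher and 1 lower in Stat3-deleted arrays and 3 higher and 1 lower in controls, for example Csnk1e, a casein kinase, at 1.30 and 1.66. Nuclear cofactors had 7 higher and 4 lower of 16 in Stat3-deleted arrays and 6 higher and 4 lower in controls, with the beta-catenin cofactor Bcl9 at 1.59 and 1.46. The ligands, mostly lower, were dim, with array means of 5.62 to 6.07 in tumours and 5.99 to 6.47 in epithelial cells. Array medians were 5.88 to 6.07. In controls, 6115 of 17316 genes were called lower, and 3685 of 13322 with the filter set at the array median. The ligands were not counted under that filter, and the part of low signal in their lower calls was not tested. The other lists are small and several counts lie near the shares over all genes. No direction is read from any of these lists.

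Deleting Stat3 changed no gene of the list past the threshold, in tumours or in epithelial cells. In tumours of both sexes, 0 of 32 passed in limma, where 0.71% of all genes did. At an unadjusted p under 0.05 there were 5 members of 32, against 12% of all genes. The median difference of the members was -0.12, against -0.04 over all genes. The lowest adjusted p among the members was 0.222. No member was separated between the 6 Stat3-deleted and 6 control tumours in every array, where 0.219% of all genes were higher and 1.14% lower in every array. The 95% intervals had a median half-width of 0.46 around each estimate. Some reached further from 0, to -1.86 for Dkk2, -1.48 for Prox1 and 2.30 for Apcdd1. Differences inside these intervals were not excluded. Leaving out any single array gave 0 members called in this comparison. With limma's array weights, 3 members passed and were lower, Ephb3 at -0.73, Prox1 at -0.90 and Sox9 at -0.58, where 5.47% of all genes were called lower.

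**Figure D3:**
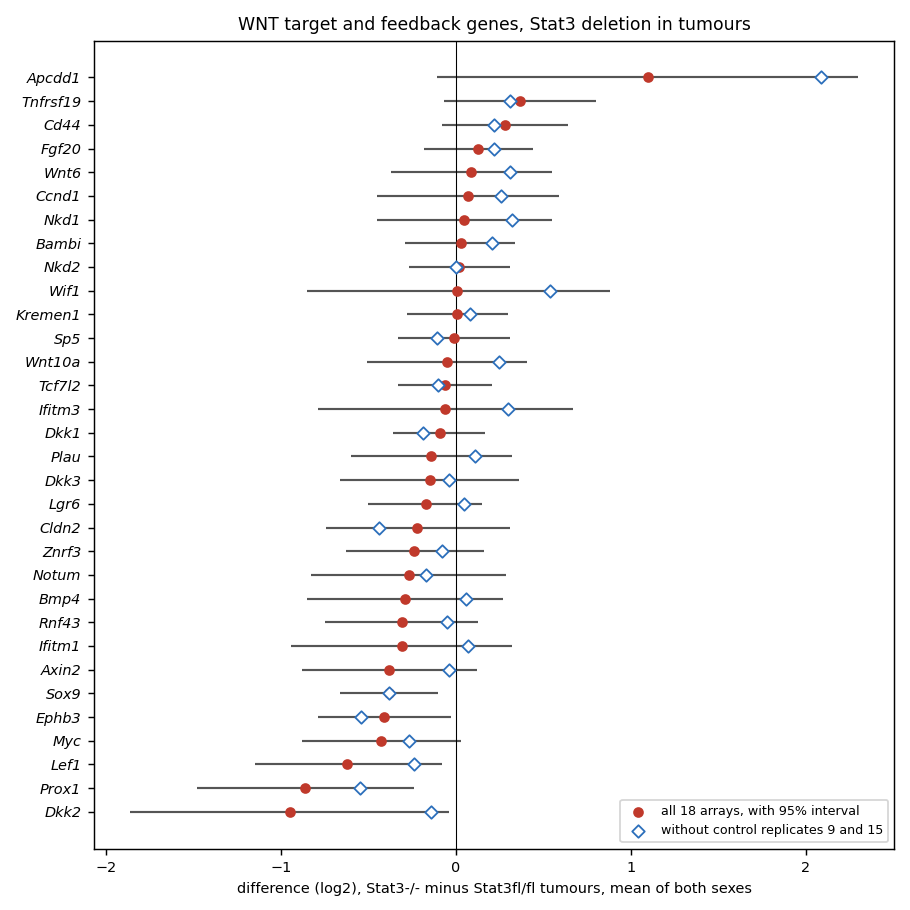
Stat3-deleted minus control tumours for the 32 genes, as the mean log2 difference of both sexes on the horizontal axis, with 95% intervals (red points) and the same estimate without control replicates 9 and 15 (open diamonds). Most intervals span 0, and Apcdd1 moves to 2.09 and Dkk2 to -0.14 without those arrays.

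The 5 genes with an unadjusted p under 0.05 all had negative differences, and none passed the adjustment. Prox1 had the lowest p. It was 8.29, 9.45 and 10.31 in Stat3-deleted tumours, as the lowest, median and highest of 6, against 9.73, 10.07 and 10.99 in control tumours. The groups overlapped, since Stat3-deleted replicate 18 exceeded 4 of the 6 controls. Its difference was -0.86 ± 0.29 (SE; adjusted p = 0.222). Sox9 differed by -0.38 ± 0.13 (adjusted p = 0.224), Lef1 by -0.62 ± 0.25 (0.326), Ephb3 by -0.41 ± 0.18 (0.371) and Dkk2 by -0.95 ± 0.43 (0.389). The intervals of the standard readouts included 0. For Axin2 the difference was -0.38 with a 95% interval of -0.88 to 0.12, and for Nkd1 it was 0.05 with an interval of -0.45 to 0.55. Myc differed by -0.43 (-0.88 to 0.03) and Cd44 by 0.28 (-0.08 to 0.64). The widest intervals were those of Apcdd1, Dkk2 and Wif1.

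By sex, 0 members passed in male tumours, where 0.231% of all genes did, and 0 in female tumours, where 0.104% did. At an unadjusted p under 0.05 there were 3 in males (7.52% of all genes) and 1 in females (5.03% of all genes). Prox1 had a difference of -0.86 in each sex. Tested for a difference between the sexes, the effect of the deletion called 0 members and had 0 at an unadjusted p under 0.05, against 0.0% and 0.936% of all genes. Male tumours compared with female tumours, averaged over genotypes, gave 0 members past the threshold, against 0.0231% of all genes, and 2 at an unadjusted p under 0.05, against 6.13%. These were Sox9, at 9.59 in males and 10 in females, and Dkk1, at 5.92 in males and 5.61 in females, both with an adjusted p of 0.749.

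In epithelial cells, 0 members passed for Stat3 deletion, against 0.0231% of all genes, and 1 had an unadjusted p under 0.05, against 6.80%. That gene was Myc, at 7.18, 6.99 and 7.57 in Stat3-deleted cells and 6.71, 7.30 and 5.69 in control cells. The groups overlapped, and the difference was 0.68 ± 0.30 (SE; adjusted p = 0.722). The effect of the deletion was also compared between tumours and epithelial cells. In this test 0 members passed, against 0.0116% of all genes, and 2 had an unadjusted p under 0.05, against 9.38%. These were Myc, at -1.11 ± 0.37 (SE; adjusted p = 0.474), and Lef1, at -1.12 ± 0.44 (SE; adjusted p = 0.503), so the unlike tumour differences of these genes in the 2 genotypes were not resolved.

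Apcdd1, a membrane protein that binds WNT proteins and their receptors and lowers the signal, had the largest positive difference under Stat3 deletion and the widest range among control tumours. In Stat3-deleted tumours it was 9.16, 10.14 and 8.66 in males and 9.16, 8.15 and 10.26 in females. In control tumours it was 6.94, 7.48 and 10.46 in males and 7.07, 7.17 and 9.83 in females. Epithelial cells had 6.53, 6.44 and 7.0 with Stat3 deleted and 6.47, 6.52 and 6.69 in controls. All 6 Stat3-deleted tumours thus lay above 4 control tumours, and the other two controls, replicates 9 and 15, lay among or above the Stat3-deleted ones. Over all arrays the difference between Stat3-deleted and control tumours was 1.10 ± 0.57 (SE; 95% interval -0.11 to 2.30; adjusted p = 0.474). Against epithelial cells, Apcdd1 was 2.60 ± 0.70 higher in Stat3-deleted tumours (adjusted p = 0.0041) and 1.60 ± 0.70 higher in control tumours (adjusted p = 0.0539). The control difference passed without replicate 7, 8, 13, 14 or 18, with adjusted p between 0.023 and 0.0488, and with array weights (0.0395). It did not pass without replicate 9, without replicate 15 or without both. Replicates 9 and 15 averaged 10.15. The other 4 control tumours, replicates 7, 8, 13 and 14, averaged 7.17, against 6.56 in control epithelial cells.

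Replicates 9 and 15 stood apart from the other tumours in some genes that mark position along the gut. Hoxd13, a homeobox gene of the distal gut, was 8.25 and 9.10 in them and 4.82 to 5.59 in the other 10 tumours. Gata4, a factor of the proximal small intestine, was 6.92 and 6.84 in them and 8.86 to 9.86 in the other 10. Car1, a carbonic anhydrase abundant in colon, was 10.90 and 10.24 in them, and 4.36 to 8.40 in the other 10. The 8.40 was that of Stat3-deleted female replicate 16. Each of the 5 distal colon genes measured was higher in both than in any of the other 10 tumours. Their mean was 8.44 and 8.54 in replicates 9 and 15, against 4.85 to 5.91 in the other 10. The other genes of the small intestine list did not separate these arrays as Gata4 did. The mean of the 5 small intestine genes was 6.81 and 7.30 in replicates 9 and 15, within the 6.65 to 8.84 of the other 10 tumours. In the remaining control tumours alone this mean was 7.22 to 8.84.

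A small intestine gene also differed between the genotypes. Slc10a2, the bile acid transporter of the ileum, had log2 values of 3.91, 4.61 and 4.60 in Stat3-deleted tumours of males, and 4.57, 4.62 and 4.35 in those of females. In control tumours it was 6.96, 7.72 and 6.23 in males and 5.28, 6.29 and 6.40 in females. Every Stat3-deleted tumour thus lay below every control, as for 1.14% of all genes. The difference was -2.03 ± 0.24 (SE; adjusted p = 0.000315), and -2.12 without replicates 9 and 15 (adjusted p = 9.15e-05). It was the single gene of the 5 that passed. Fabp6, the bile acid binding protein of the ileum, was 4.27 to 4.62 in Stat3-deleted tumours and 4.78 to 11.10 in controls, a difference of -2.89 ± 0.76 (SE; adjusted p = 0.0946), and it passed without replicate 9 at -3.68 (0.00275) and without replicates 9 and 15 at -3.60 (0.00507). The Stat3-deleted values of both genes lie near the 25th percentiles of the arrays, 4.30 to 4.57. At this dim end of the scale the sizes of the differences are not well measured. In epithelial cells of both genotypes Slc10a2 was 7.02 to 7.70 and Fabp6 9.75 to 10.84. The mean of the 5 genes was 6.65 to 7.18 in Stat3-deleted tumours and 6.81 to 8.84 in control tumours, against 8.58 to 8.97 in epithelial cells. The site of each tumour is not given, and the part of position along the gut in the tumour comparisons, between genotypes and against epithelial cells, was not tested.

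Since each sex of the control group holds one array with high Hoxd13 and low Gata4 and the Stat3-deleted group holds none, the comparison was repeated without replicates 9 and 15.

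Without replicates 9 and 15, Apcdd1 was the single member called in tumours, with a difference of 2.09 ± 0.33 (SE; adjusted p = 0.00319), where 0.578% of all genes were called higher and 1.17% in either direction. It was also the single member for which every Stat3-deleted tumour lay above each of the remaining 4 controls, against 0.832% of all genes. No member lay below them in every array, against 2.53% of all genes. These arrays were set aside with their values in view, so this count has no independent support.

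**Figure D4:**
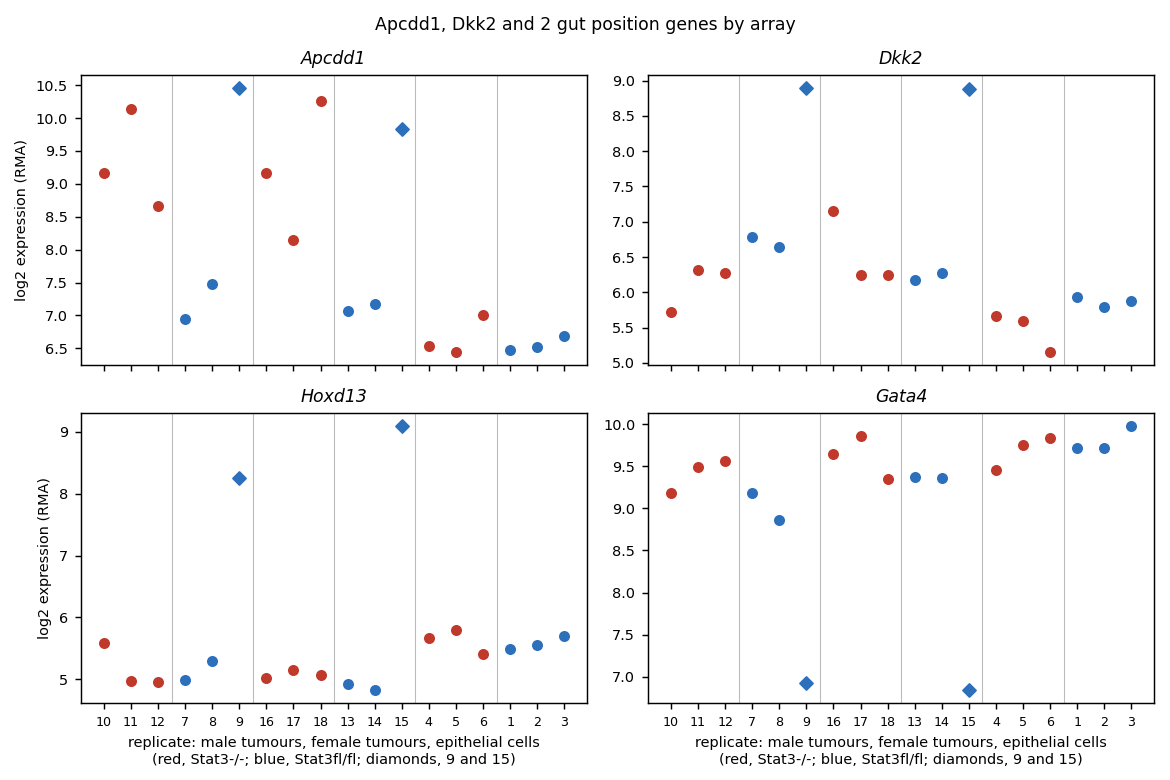
Log2 expression of Apcdd1, Dkk2, Hoxd13 and Gata4 in each array, with replicates grouped by sex and tissue on the horizontal axis and Stat3-deleted arrays (red) left of control arrays (blue). Diamonds mark control tumour replicates 9 and 15, which are high for Apcdd1, Dkk2 and Hoxd13 and low for Gata4.

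The same arrays were high for many other members. Both lay above the other 4 control tumours for 18 of 32 members and below for 1, and 13 overlapped, against 18.3% above and 15.1% below over all genes. Dkk2 was 8.90 and 8.88 in them and 6.17 to 6.78 in the other 4 controls, a mean difference of 2.42. Wif1 differed by 1.57, Lef1 by 1.12, Ifitm1 by 1.12, Axin2 by 1.03 and Prox1 by 0.94. Cldn2 was the member below, at 9.38 on average against 10.06 in the other 4. Sox9 and Cd44 overlapped, with mean differences of 0.00 and -0.18. These arrays also differed in cell type markers. Macrophage markers averaged 8.56 and 9.0 in replicates 9 and 15 against 7.12 to 7.84 in the other 4 controls, and fibroblast markers 10.25 and 10.29 against 9.43 to 9.83. Enterocyte markers averaged 8.77 and 8.42 against 10.80 to 11.22. The part of these differences in the WNT gene values was not tested.

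Among the 12 tumours, few arrays held most of the extreme values. Control male replicate 9 was the highest of the 12 for 11 members, and Stat3-deleted female replicate 18 for 10. Control female replicate 15 was highest for 4. At the other end, Stat3-deleted female replicate 17 was the lowest of the 12 for 11 members. Replicate 18 had the highest fibroblast mean, 10.93, and replicate 17 the highest epithelial mean, 11.88, with a fibroblast mean of 9.57. The lowest fibroblast mean, 9.33, was that of Stat3-deleted male replicate 12, which was the lowest for 5 members. The part of cell composition in these extremes was not tested.

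**Figure D5:**
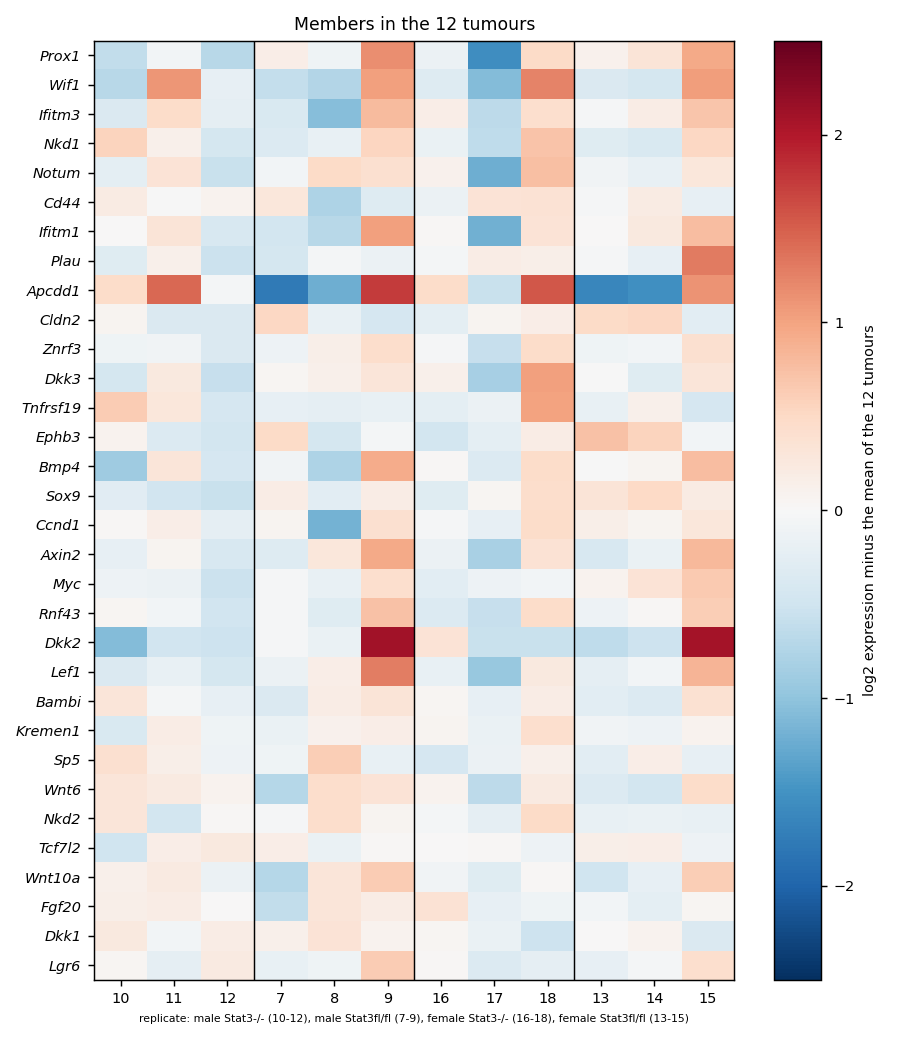
The 32 genes in the 12 tumours, as log2 expression minus the gene's mean over the 12 tumours (colour), with arrays as columns and Stat3-deleted arrays left of control arrays within each sex. Replicates 9, 15 and 18 are mostly red and replicate 17 mostly blue, and Apcdd1 is blue in control replicates 7, 8, 13 and 14.

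Outside the 32 genes, Stat3 deletion in tumours called 0 genes of the lists of WNT ligands, secretion, receptors, R-spondins, other inhibitors, destruction complex and nuclear cofactors. Of 10 crypt stem cell genes 1 passed, Ascl2, a stem cell transcription factor driven by WNT signalling, at -0.82 ± 0.16 (SE; adjusted p = 0.0202). Of 6 Paneth cell genes 1 passed, Mmp7, a matrix protease, at -1.65 ± 0.34 (SE; adjusted p = 0.0328). Slc10a2, among the small intestine genes, was described above. Ascl2 and Mmp7 were both lower in every Stat3-deleted tumour than in every control tumour, as were 1.14% of all genes. In this comparison 0.71% of all genes passed. These are single genes of their lists, and nothing is read from them about crypt or Paneth genes as a set. The Ascl2 call was lost without replicate 11, 12, 15 or 17, with adjusted p between 0.0533 and 0.0598, and was kept without replicates 9 and 15 together (0.0216). The Mmp7 call was lost without replicate 6, 8, 11, 12, 14, 15, 16 or 17, with adjusted p between 0.0505 and 0.106, and without replicates 9 and 15 together (0.0759). Fitted on the tumour arrays alone, neither passed, with adjusted p of 0.122 for Ascl2 and 0.0974 for Mmp7.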

How the data were processed

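Total RNA from 18 mouse samples was measured on Affymetrix arrays, in 6 groups of 3 read from the sample titles. The deposited values are log2 expression per probe set, made by the authors with RMA, per the submitters' processing notes. Neither its version nor the array library is stated in these sources. Values from 1.33 to 14.6 fit the log2 scale. Of 35556 probe sets, 21789 carried 1 gene symbol in the platform table, 1621 several and 12146 were not listed. The probe set with the highest mean was kept per gene, which gave 19938 genes, and a gene was tested if it exceeded its array's 25th percentile in at least 3 arrays. No values were transformed further.

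A mean per group was fitted to all 18 arrays in limma 3.58.1 (R 4.3.3) with an intensity trend, and two-sided p-values were adjusted by Benjamini-Hochberg over 17316 genes, with a threshold of 0.05. The fit was tested on simulated data with 200 changed genes. Precision is limited by the number of arrays; signal over background was not part of the table. The members, the other gene lists and the tests were chosen with earlier results of these data known, including the place of replicates 9 and 15. Named genes are every member, Stat3, up to 4 genes of each other list among those with the largest differences past the threshold, Gata4, Hoxd13 and Car1; Xist, as a check of sex, and Fabp6 were added after their values were seen. Alternatives were another normalisation, filter, variance trend, set of arrays, array weighting and probe set rule. Promoter windows came from RefSeq for GRCm38.p6; no other coordinates were used.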

Additional observations from a re-analysis of the deposited data

How the results depend on the processing

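No paired analysis was possible because replicate numbers are unique over the series. In the settings tried, the counts of members higher in tumours than in epithelial cells stayed within 1.5 times of those reported. Members called lower in control tumours numbered 5 with quantile normalisation, 6 with array weights and 5 without replicates 9 and 15, and in Stat3-deleted tumours 5 with quantile normalisation and 5 with array weights, against 3 reported in each. With each array left out in turn, 21 to 23 members were higher and 2 to 4 lower in control tumours, and 21 to 23 higher and 2 to 3 lower in Stat3-deleted tumours. For Stat3 deletion in tumours, 1 member was higher without replicates 9 and 15 (Apcdd1), and 3 were lower with array weights, which also called 2 lower in female tumours (Ephb3 and Sox9) and 2 lower for tumours minus epithelial cells (Ephb3 and Myc). These weights ran from 0.16 for replicate 8 to 4.87 for replicate 6, and with them 8.17% of all genes were called for Stat3 deletion in tumours, 4.30% in female tumours and 5.99% in the difference. Bambi lost both tumour calls under quantile normalisation, with adjusted p of 0.111 and 0.0966. The causes of these changes were not tested. Only differences that did not pass changed sign. Control tumours minus epithelial cells gave -0.05 for Sp5 and -0.12 for Kremen1 with quantile normalisation, and 0.00 for Wnt6 with male tumours alone. Stat3-deleted tumours minus epithelial cells gave 0.05 for Nkd2 and -0.21 for Sp5 with quantile normalisation, -0.07 for Sp5 and 0.01 for Wnt6 with array weights, and 0.11 for Wnt6 with male tumours alone. Stat3 deletion in tumours gave -0.16 for Ccnd1, -0.08 for Nkd1, 0.00 for Wif1, 0.09 for Wnt10a and 0.00 for Plau with array weights. Without replicates 9 and 15 it gave 0.00 for Nkd2, 0.25 for Wnt10a, 0.05 for Lgr6, 0.07 for Ifitm1, 0.30 for Ifitm3, 0.11 for Plau and 0.06 for Bmp4, and quantile normalisation gave 0.03 for Sp5. Over the fits without a single replicate, differences that crossed 0 for Stat3 deletion in tumours ran from -0.17 to 0.23 for Ccnd1, -0.14 to 0.20 for Nkd1, -0.08 to 0.13 for Nkd2, -0.49 to 0.01 for Notum, -0.08 to 0.12 for Sp5, -0.31 to 0.30 for Wif1, -0.38 to 0.08 for Dkk3, -0.01 to 0.22 for Fgf20, -0.10 to 0.23 for Wnt6, -0.25 to 0.11 for Wnt10a, -0.27 to 0.19 for Ifitm3, -0.28 to 0.09 for Plau, -0.07 to 0.14 for Bambi, -0.06 to 0.08 for Kremen1 and -0.13 to 0.05 for Tcf7l2. For tumours minus epithelial cells they ran from -0.19 to 0.14 for Wnt6 with Stat3 deleted and from -0.21 to 0.12 for Wnt6 in controls.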
